A study of Mus musculus with 9 samples.

Results

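The 7 genes described here make, load or break down the amino acid transmitters GABA and glutamate. They were taken from the deposited expression table as the rows whose identifier equals Gad1, Gad2, Slc32a1, Abat, Slc17a6, Slc17a7 or Slc17a8, and all 7 were found, each on 1 row, among 24487 rows. The table holds 5 libraries of whole midbrain and 4 libraries of midbrain dopaminergic neurons of mice on a C57BL/6 background, and the libraries carry no treatment, genotype, age or sex in their labels. The labels do not say how the RNA of dopaminergic neurons was obtained. Nor do they say whether each library is a different animal, and the p-values below therefore speak of the spread among these 9 libraries alone, which may be technical. The deposited table's title uses the word bacTRAP, the name of a method that pulls down tagged ribosomes of one cell type with their RNA, and the promoter that would drive such a tag is not given in the sources used here. Values are FPKM, fragments per kilobase of transcript scaled to the number of mapped fragments, so levels can be set side by side between genes.

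GABA is made from glutamate by the decarboxylases GAD67 (Gad1) and GAD65 (Gad2), packed into synaptic vesicles by the transporter VGAT (Slc32a1), which also carries glycine, and broken down by GABA transaminase (Abat). Glutamate is packed by the vesicular transporters VGLUT2 (Slc17a6), VGLUT1 (Slc17a7) and VGLUT3 (Slc17a8). Many midbrain neurons that use GABA or glutamate lie among the dopaminergic neurons. Some dopaminergic neurons are known to release glutamate through VGLUT2, and some release GABA that they take up or make without the Gad enzymes and load with the monoamine transporter VMAT2 (Slc18a2). The comparison asked how much of the message of the classical transmitter genes is found with dopaminergic neurons and how it differs from the surrounding tissue.

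Promoter sequence is shown for the 4 genes among the 7 that best mark a GABA or glutamate neuron of the midbrain. All 7 fell in the comparison below, so the fall does not single out these 4. RefSeq entries of the GRCm38.p6 build were matched for 6 of the 7 genes. Each line is the plus strand of mouse chromosome 2 or 7, read 5′ to 3′ within the 250 bases before the RefSeq start, without bases that lie in an exon of a protein-coding gene. For Slc17a6 it is the first of 2 RefSeq starts. The Gad1 stretch lies inside the gene as annotated by GENCODE, which begins at 70553072, and so precedes a start further in. The stretches are chr2:70561879-70562041 for Gad1, chr2:22622077-22622204 for Gad2, chr2:158610508-158610757 for Slc32a1 and chr7:51621580-51621829 for Slc17a6.
Gad1: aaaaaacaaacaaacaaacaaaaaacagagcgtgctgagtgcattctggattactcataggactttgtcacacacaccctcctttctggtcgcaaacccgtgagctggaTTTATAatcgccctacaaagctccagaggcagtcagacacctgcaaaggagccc
Gad2: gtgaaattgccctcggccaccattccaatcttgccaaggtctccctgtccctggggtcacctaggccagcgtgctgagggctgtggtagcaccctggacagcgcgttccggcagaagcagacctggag
Slc32a1: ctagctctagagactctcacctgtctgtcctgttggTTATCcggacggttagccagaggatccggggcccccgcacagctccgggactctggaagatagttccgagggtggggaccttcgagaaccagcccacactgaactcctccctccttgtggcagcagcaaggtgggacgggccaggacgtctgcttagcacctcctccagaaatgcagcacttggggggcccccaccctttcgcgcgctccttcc
Slc17a6: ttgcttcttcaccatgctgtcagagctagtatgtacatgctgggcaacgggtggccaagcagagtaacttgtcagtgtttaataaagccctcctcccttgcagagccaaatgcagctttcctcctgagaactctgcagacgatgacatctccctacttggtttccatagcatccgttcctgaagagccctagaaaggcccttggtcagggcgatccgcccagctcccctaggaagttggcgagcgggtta
Capitals mark matches on either strand to GATAA, the core bound by GATA factors, to AAAGGTCA, the element bound by Nr4a2, or to TATAAA. Slc32a1 held 1 match to GATAA, which occurs in 22.6 percent of 32851 RefSeq windows of 250 bases, and Gad1 held 1 match to TATAAA, which occurs in 12.4 percent. None of the 4 windows held AAAGGTCA, which occurs in 1.34 percent of all windows. A match is a description of letters, not a site.

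The dopaminergic label was set beside Th, Slc6a3, Ddc, Slc18a2, Nr4a2, Pitx3, En1, Drd2 and Ret. All 9 were higher in the dopaminergic libraries, as were 38.3 percent of all genes tested. Those other than Th were chosen after their values were seen, so they describe the label and do not test it. The steps between low values of single-exon receptor genes correspond to about 16.2 to 33.6 megareads per whole midbrain library and 47.2 to 62.6 megareads per dopaminergic library. Only 2 to 7 such genes per library fit the step, so these depths and the read numbers drawn from them below are rough. Whole midbrain library 2 stood apart, with a Pearson's r across genes of 0.903 to 0.906 to the rest of its group, against 0.947 to 0.962 among the others (genes are not independent replicates). Its summed FPKM was 409130, against 309275 to 313252 in the other 4, and only values given as TPM are rescaled to that sum. Library 2 also held 393 FPKM of somatostatin (Sst) and 182 FPKM of parvalbumin (Pvalb). These markers of GABA neurons stood at 52.3 to 63.4 and 49.8 to 71.8 in the other 4, so results are also given without library 2.

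All 7 transmitter genes were lower in dopaminergic neurons, and none was higher. By limma with Benjamini-Hochberg adjustment over the 13106 genes whose mean reached 1 FPKM, each fell at an adjusted p under 0.05. The background was high: 36.0 percent of all genes tested were called lower and 38.3 percent higher, together 74.2 percent. The members' median log2 fold change was -2.06, against 0.04 over all genes tested. In all 7 the highest dopaminergic library lay below the lowest whole midbrain library, as it did for 31.8 percent of genes tested. When FPKM was rescaled to TPM, 2248 genes were called higher and 7393 lower in place of 5014 and 4717, and with upper-quartile scaling 3872 and 5673, and all 7 members stayed lower under both. Log2 fold changes are of FPKM plus 1, which understates the change of low genes. Fewer cells of a type and less RNA per cell cannot be told apart in these bulk libraries.

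Gad1 (chromosome 2, 70562164 to 70602012, mm10) had the most negative log2 fold change of the 7 on that scale. With 0.1 added in place of 1, Slc17a7 (-3.29) and Slc17a8 (-3.30) were below Gad1 (-2.79). In whole midbrain libraries 1 to 5 it stood at 66.2, 82.3, 70.7, 67.5 and 64.7 FPKM, and in dopaminergic libraries 1 to 4 at 8.38, 10.4, 10.7 and 10.9. The whole midbrain libraries were high in all 5 cases, with library 2 the highest, and the 4 dopaminergic libraries lay close together. The means were 70.3 ± 7.08 (SD, n = 5) and 10.1 ± 1.17 (SD, n = 4), a 6.96-fold difference, with a log2 fold change of -2.68 ± 0.10 (SE) and an adjusted p of 9.2e-09 (limma).

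Gad2 (chromosome 2, 22622327 to 22693877), the second enzyme, was the most abundant of the 7 in whole midbrain. Its level there was 174, 121, 180, 185 and 172 FPKM in libraries 1 to 5, and 29.8, 33.1, 25.9 and 29.3 in dopaminergic libraries 1 to 4. Library 2 was the lowest of whole midbrain for Gad2 while it was the highest for Gad1, and the groups did not overlap for either gene. Gad2 was 5.64-fold lower in dopaminergic neurons, with means of 166 ± 25.7 and 29.5 ± 2.94 and a log2 fold change of -2.45 ± 0.13 (SE, limma adjusted p = 9.2e-08). Set against the 1491 to 1722 FPKM of Th in the same dopaminergic libraries, Gad2 came to 1.503 to 2.146 percent and Gad1 to 0.487 to 0.733 percent.

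Slc32a1 (chromosome 2, 158610758 to 158615747), which fills vesicles with GABA, stood at 25.3, 37.7, 24.2, 23.8 and 26.5 FPKM in whole midbrain and at 6.78, 5.94, 5.96 and 8.23 in dopaminergic neurons. Library 2 was again the highest of its group. The fall was 4.09-fold, from 27.5 ± 5.79 to 6.73 ± 1.07, with a log2 fold change of -1.87 ± 0.14 (SE, limma adjusted p = 1.1e-06). Its exons share 697 bases with the antisense gene Gm14205, and the counting is not stated to use strand, so reads of the pair cannot be told apart.

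Abat (chromosome 16, 8513429 to 8621567), which degrades GABA and is used by glia as well as neurons, fell least. It stood at 93.5, 96.7, 92.2, 84.2 and 89.5 FPKM in whole midbrain and at 53.4, 53.3, 46.1 and 46.8 in dopaminergic neurons. The spread within each group was small and the groups lay well apart. The difference was 1.83-fold, from 91.2 ± 4.70 to 49.9 ± 4.01, with a log2 fold change of -0.86 ± 0.08 (SE, limma adjusted p = 3.8e-06).

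Slc17a6 (chromosome 7, 51621830 to 51671126), the main vesicular glutamate transporter of the midbrain and the one known from dopaminergic neurons, stood at 47.6, 61.3, 57.6, 49.8 and 47.5 FPKM in whole midbrain. In dopaminergic libraries 1 to 4 it was at 10.4, 14.7, 9.83 and 12.9 FPKM, with libraries 2 and 4 the higher ones. Its means were 52.74 ± 6.313 and 11.96 ± 2.260, a 4.41-fold fall with a log2 fold change of -2.06 ± 0.13 (SE, limma adjusted p = 2.4e-07). It came to 0.571 to 0.954 percent of the Th level in the dopaminergic libraries.

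Slc17a7 (chromosome 7, 45163921 to 45176139), the transporter typical of cortical glutamate neurons, was low in both groups. It was at 5.18, 10.7, 2.55, 5.59 and 7.79 FPKM in whole midbrain and at 0.822, 0.928, 0.374 and 0.183 in dopaminergic neurons. This was the widest spread of the 7 within whole midbrain relative to the mean, and the groups still did not overlap. The means were 6.37 ± 3.07 and 0.577 ± 0.356, an 11.04-fold difference in FPKM, with a log2 fold change of -2.14 ± 0.31 (SE, limma adjusted p = 0.000105).

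Slc17a8 (chromosome 10, 89574020 to 89621249), found in scattered neurons of other transmitter types such as serotonergic cells, was the lowest of the 7. Whole midbrain held 3.540, 3.498, 2.323, 2.997 and 3.924 FPKM, and dopaminergic neurons held 0.1048, 0.5529, 0.1998 and 0.2168. Dopaminergic library 2 was the highest of its group. The means were 3.26 ± 0.617 and 0.269 ± 0.196, a 12.1-fold difference in FPKM, with a log2 fold change of -1.75 ± 0.14 (SE, limma adjusted p = 1.9e-06). At the estimated depths these dopaminergic values correspond to about 23 to 116 reads over the longest coding transcript, and those of Slc17a7 to about 33 to 128. Gad1 rested on about 1367 to 2254 reads in the same libraries.

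**Figure D1:**
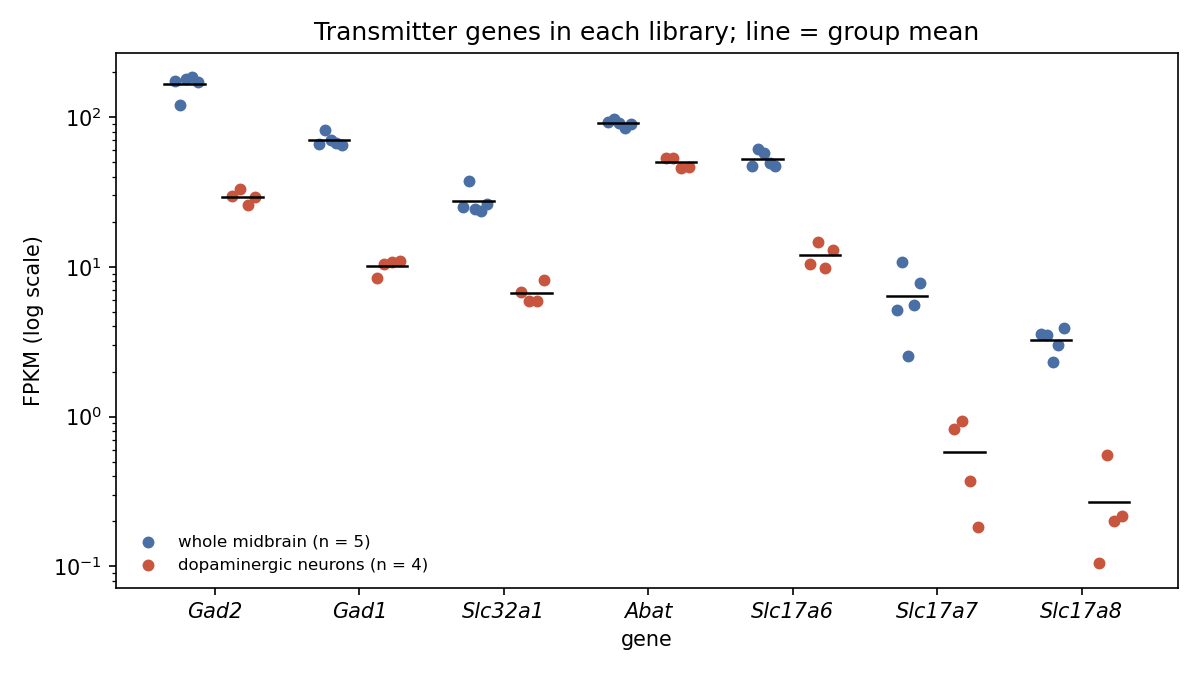
FPKM of the 7 transmitter genes on a log axis, 1 point per library, with whole midbrain (n = 5) in blue, dopaminergic neurons (n = 4) in red and a line at each group mean. For every gene the red points lie below the blue ones, closest for Abat (46.1 to 53.4 against 84.2 to 96.7 FPKM).

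Without whole midbrain library 2 all 7 genes remained lower at an adjusted p under 0.05 (limma). Their log2 fold changes were then -2.63 for Gad1, -2.55 for Gad2, -1.76 for Slc32a1, -0.84 for Abat, -2.01 for Slc17a6, -1.95 for Slc17a7 and -1.72 for Slc17a8.

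The order of the 7 levels differed between the groups. In whole midbrain it ran Gad2, Abat, Gad1, Slc17a6, Slc32a1, Slc17a7 and Slc17a8, and only the last 2 had overlapping ranges, although Slc17a7 was the higher in 5 of 5 libraries. In dopaminergic neurons Abat was first, followed by Gad2, Slc17a6, Gad1, Slc32a1, Slc17a7 and Slc17a8. There Slc17a6 and Gad1 overlapped, with Slc17a6 higher in 3 of 4 libraries, and so did Slc17a7 and Slc17a8.

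How far the genes fell relative to each other was tested on the ratio of 2 genes within a library, in which the scaling of a library largely cancels for abundant genes. Because 0.1 was added to each value, ratios to the low genes Slc17a7 and Slc17a8 depend on that addition. Of 21 pairs, 8 had a ratio that differed between the groups (exact permutation test over libraries, two-sided, Benjamini-Hochberg over the 21 pairs). For each of the 8 the exact p was 0.0159, the smallest that 5 against 4 libraries allow, and the adjusted p was 0.0417. Without any 1 library the smallest exact p is 0.0286 or 0.0357 and 0 pairs passed the adjustment. In all 8 the groups lie apart with every library in, so leaving 1 out cannot make them overlap or turn the direction. Abat was in 6 of these pairs, having fallen less than each of the other members.

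The remaining pairs that passed were Gad1 with Slc17a6 and Gad1 with Slc32a1. In whole midbrain libraries 1 to 5 there was 1.39, 1.34, 1.23, 1.36 and 1.36 times as much Gad1 as Slc17a6, and in dopaminergic libraries 1 to 4 only 0.806, 0.706, 1.09 and 0.848 times. Whole midbrain was above 1 in all 5 libraries, and dopaminergic library 3 was the only one of its group above 1. The ratio was 1.56-fold lower in dopaminergic neurons, a difference of -0.65 on the log2 scale. The ratio of Gad1 to Slc32a1 ran from 2.19 to 2.92 in whole midbrain and from 1.24 to 1.80 in dopaminergic neurons, a difference of -0.78. Measured message for the enzyme GAD67 thus fell further than that for the vesicular transporters VGLUT2 and VGAT, by calls that ended without any 1 library. The VGAT values may also hold reads of the antisense gene Gm14205.

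The 2 Gad genes did not differ detectably in their fall. There was 2.63, 1.47, 2.55, 2.74 and 2.66 times as much Gad2 as Gad1 in whole midbrain libraries 1 to 5 and 3.55, 3.19, 2.41 and 2.68 times in dopaminergic libraries 1 to 4. The lowest ratio was that of whole midbrain library 2, and the groups overlapped. The log2 ratio of Gad1 to Gad2 differed by -0.31 (exact permutation test, adjusted p = 0.235). Slc32a1 and Slc17a6, one from each transmitter, differed by 0.14 in their log2 ratio (exact permutation test, adjusted p = 0.467). The ratio of Slc17a6 to Slc17a8 differed by 1.16 at an exact p of 0.0317 and an adjusted p of 0.0741, which missed the threshold. With 0.01 added in place of 0.1 it passed (1.62, exact permutation test, adjusted p = 0.037), and with 1 added it turned sign (-0.32).

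**Figure D2:**
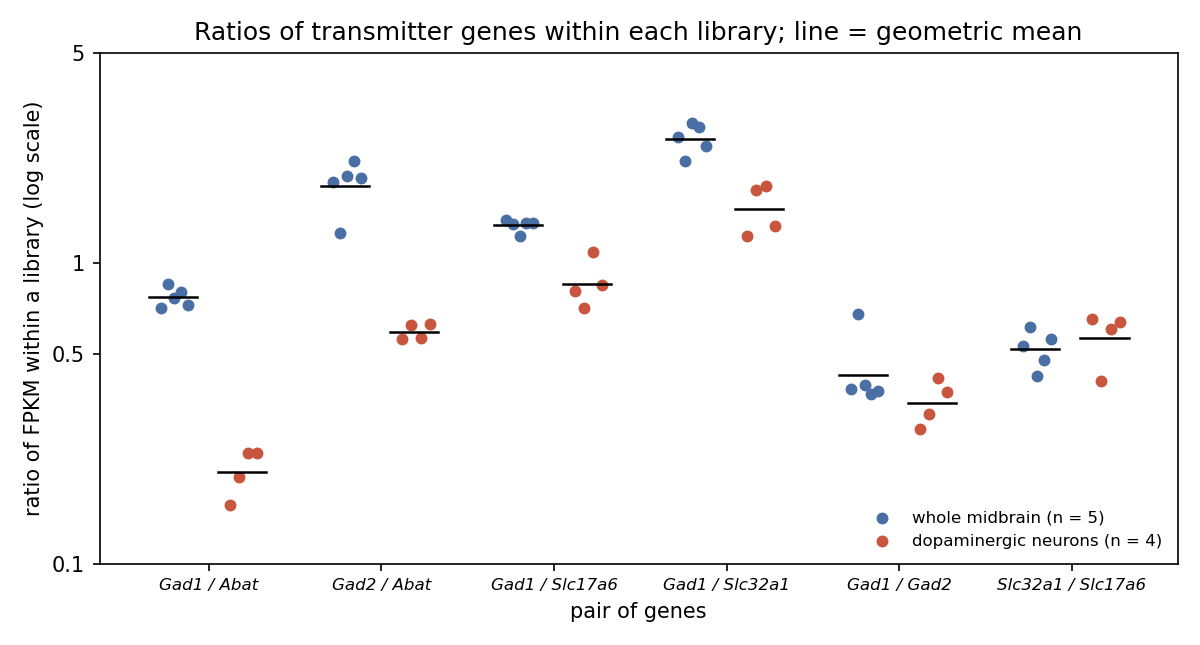
Ratio of FPKM of 2 transmitter genes within each library, on a log axis, with whole midbrain in blue, dopaminergic neurons in red and a line at each geometric mean. The groups lie apart for the ratios to Abat and for Gad1 to Slc17a6 and to Slc32a1, and overlap for Gad1 to Gad2 and Slc32a1 to Slc17a6.

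The level left in dopaminergic neurons, as a percent of the whole midbrain mean, was 54.7 ± 4.40 for Abat (SD, n = 4), 24.5 ± 3.91 for Slc32a1 and 22.7 ± 4.28 for Slc17a6. It was 17.7 ± 1.76 for Gad2, 14.4 ± 1.67 for Gad1, 9.06 ± 5.59 for Slc17a7 and 8.25 ± 6.01 for Slc17a8. Over all genes tested the median was 102 percent, and 10.8 percent of genes were under 25 percent. As TPM, the level left was 34.9 percent for Abat, 15.9 for Slc32a1, 14.6 for Slc17a6, 11.1 for Gad2, 9.22 for Gad1, 6.01 for Slc17a7 and 5.28 for Slc17a8.

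The same percent was computed for markers of other cells. The median of 10 endothelial genes was 1.47 percent, that of 10 astrocyte genes 5.23, of 10 microglial genes 7.47 and of 10 oligodendrocyte genes 11.3. Gad1, Gad2, Slc32a1, Slc17a6 and Abat were thus left at a higher percent than the median gene of each of these 4 lists, and Slc17a7 and Slc17a8 lay below the oligodendrocyte median. All 40 of these marker genes were lower in dopaminergic neurons (limma), as were 36.0 percent of all genes tested. These markers were chosen after their values were seen, so the count describes the lists and is not a test. None of the 40 was at 0 in all 4 dopaminergic libraries. Their summed FPKM fell from 2901 to 3401 in whole midbrain to 176 to 296 in dopaminergic neurons for oligodendrocytes. For astrocytes it was 700 to 834 against 23.0 to 42.8, for microglia 160 to 201 against 18.9 to 26.3 and for endothelial cells 82.5 to 132 against 1.05 to 2.74. The part of RNA from such cells in the transmitter gene levels was not tested.

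Markers of GABA neurons that do not handle transmitter came nearer to the members. Of 8 such genes 7 were lower and none higher, against 36.0 percent lower and 38.3 percent higher over all genes tested. Their median was 23.6 percent with all 5 whole midbrain libraries. The GATA factors Gata2 and Gata3, which specify midbrain GABA neurons, were left at 20.9 and 19.6 percent. Tal1 was left at 34.9, Zfpm2 at 31.9, Sox14 at 25.6, Pvalb at 21.7 and Sst at 14.4 percent. Zfpm1, the gene without a call, went the other way and was left at 106 percent. Without whole midbrain library 2, Pvalb was left at 30.2 and Sst at 31.3 percent, while Gata2 was at 22.8 and Gata3 at 20.25. Summed over the 8 genes the level was 124 to 602 FPKM in whole midbrain, the highest value being that of library 2, against 31.0 to 58.5 in dopaminergic neurons. Of 7 markers of glutamate neurons outside transmitter handling, 4 passed the filter on low values, of which Pou4f1, Tcf7l2 and Tfap2b were lower and Lhx9 was higher. The median of the 7 was 53.2 percent. Summed over all 7 they ran from 26.3 to 73.1 FPKM in whole midbrain and from 16.5 to 27.2 in dopaminergic neurons. Of 6 serotonergic and cholinergic markers 5 were tested, 4 were lower and none higher, and the median was 19.1 percent. Over all genes tested 36.0 percent were lower and 38.3 percent higher. The tested marker without a call was the cholinergic gene Chat, left at 83.5 percent (1.34 against 1.60 FPKM, limma adjusted p = 0.355). Tph2, the enzyme of serotonin synthesis in neurons, was left at 19.9 percent, or 24.2 without whole midbrain library 2, and the serotonin transporter Slc6a4 at 8.34 percent, or 9.10 without it. The 6 summed to 55.1 to 117 FPKM in whole midbrain and to 8.46 to 14.9 in dopaminergic neurons. Whether the members' levels come from dopaminergic neurons or from carried-over RNA of these neurons was not tested.

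Between the dopaminergic libraries the percent left did not follow 1 order. In libraries 1 to 4 the oligodendrocyte median was 9.01, 12.9, 8.69 and 17.5 percent and the endothelial median 1.01, 1.59, 0.649 and 2.59, with libraries 2 and 4 the highest. Slc17a6 was at 19.7, 27.9, 18.6 and 24.4 percent, also highest in libraries 2 and 4. Gad1 was at 11.9, 14.8, 15.3 and 15.5 percent, lowest in library 1, and Gad2 at 17.9, 19.9, 15.6 and 17.6, lowest in library 3. Abat was highest in libraries 1 and 2, at 58.6 and 58.4 percent, against 50.5 and 51.3 in libraries 3 and 4. With 4 libraries no relation between these values was tested.

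**Figure D3:**
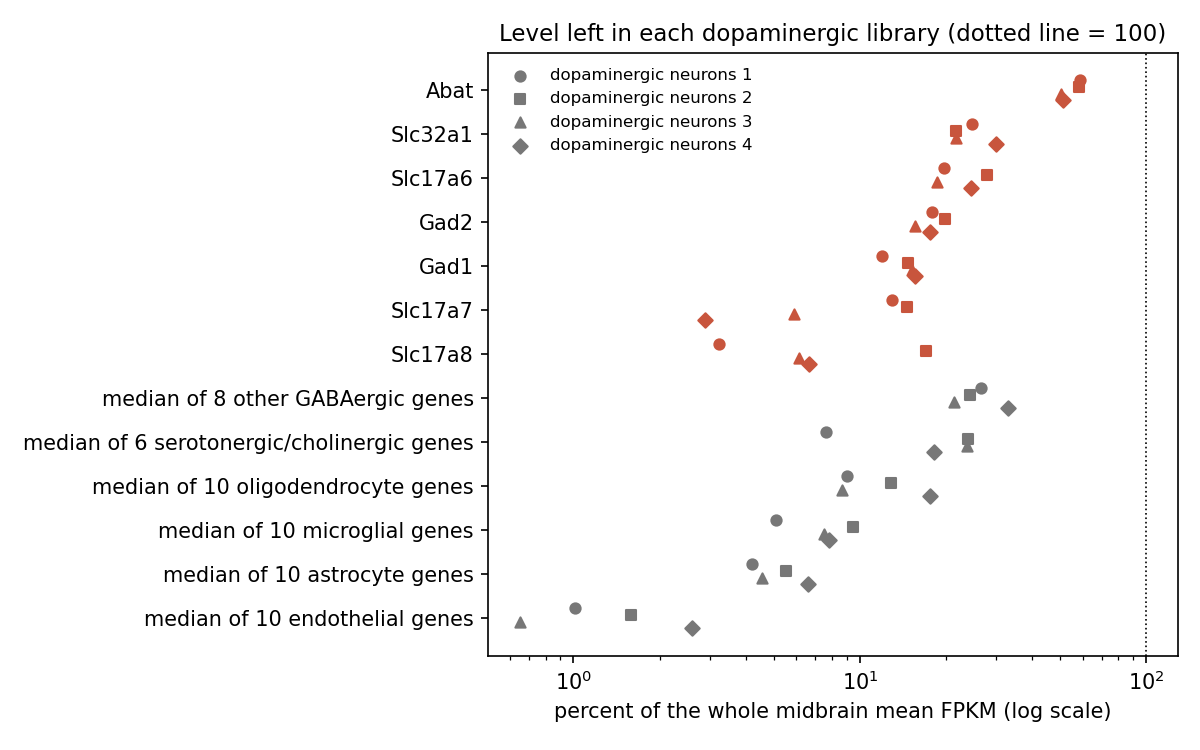
FPKM in each of the 4 dopaminergic libraries as a percent of the whole midbrain mean, on a log axis, for the 7 transmitter genes (red) and for the median gene of 6 marker lists (grey), with 1 symbol per library. The median of the 7 glutamate neuron markers, 34.7 to 65.6 percent, is not drawn. Abat lies highest at 50.5 to 58.6 percent, Slc32a1, Slc17a6, Gad2 and Gad1 lie between 11.9 and 29.9, and the endothelial median lies lowest at 0.649 to 2.59.

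Genes that take up, break down or otherwise make GABA were mostly lower as well. Of 8 such genes 6 fell and 2 rose, against 36.0 percent lower and 38.3 percent higher over all genes tested. The mainly astrocytic uptake transporter Slc6a11 (GAT3) stood at 139 ± 14.7 FPKM in whole midbrain and at 11.4 ± 2.46 in dopaminergic neurons, where 8.24 percent was left. Aldh5a1, which acts after Abat in GABA breakdown, was 1.37-fold lower at 27.8 ± 1.42 against 38.1 ± 6.55, with overlapping groups, and its call ended under median centring (limma, adjusted p = 0.0505). Over all alternatives its adjusted p ran from 1.3e-06 to 0.0505. Maob, an oxidase of the putrescine route to GABA, fell by 1.02 on the log2 scale, and Aldh9a1 of the same route fell by 0.60.

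The genes that rose were Aldh1a1 and Slc18a2, both also known as dopaminergic genes. Aldh1a1, an aldehyde dehydrogenase reported to make GABA in these neurons, was 7.41-fold higher, with a log2 fold change of 2.89 ± 0.14 (SE, limma adjusted p = 3.9e-08). Slc18a2 was 5.45-fold higher, at 231 ± 8.96 FPKM against 42.3 ± 5.28. In the dopaminergic libraries Slc18a2 therefore stood far above Slc32a1, at 221 to 243 FPKM against 5.94 to 8.23, while in whole midbrain the 2 vesicular transporters stood at 37.9 to 51.0 and 23.8 to 37.7.

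Genes of glutamate synthesis, recycling and uptake were split. Of 16 genes 10 fell, 3 rose and 3 did not pass. Over all genes tested 36.0 percent fell and 38.3 percent rose, and 3375 of 13106 did not pass. The falls were led by the astrocyte transporters Slc1a2 (GLT-1), at 17.9 ± 1.87 FPKM against 287 ± 56.1, and Slc1a3 (GLAST), at 0.924 ± 0.450 against 27.0 ± 1.63, and by the glutamine transporter Slc38a3, which fell by 3.29 on the log2 scale. Glul, the glutamine synthetase of astrocytes, was 4.39-fold lower, and the neuronal glutamate transporter Slc1a1, which shares 2631 exonic bases with an antisense gene, fell by 1.54. The 3 that did not pass were Gls2, the aminotransferase Got1 and the glutamine transporter Slc38a1, and Got1 stood at 161 FPKM in whole midbrain and 174 in dopaminergic neurons (log2 fold change 0.11, limma adjusted p = 0.289). Got1 was called lower as TPM (-0.53) and under quantile normalization (-0.70). These calls also moved with whole midbrain library 2, without which Got1 was called higher (0.17, limma adjusted p = 0.00664) and Slc38a1 lower (-0.25, adjusted p = 0.000127). As TPM, Gls2 (-0.80, adjusted p = 6.4e-05) and Slc38a1 (-0.81, adjusted p = 0.00107) were called lower as well, and so were both with upper-quartile scaling (-0.39 and -0.40).

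The mitochondrial glutamate carrier Slc25a22 showed the largest rise of this group. It stood at 38.9, 36.1, 45.4 and 37.6 FPKM in dopaminergic libraries 1 to 4 and at 11.91, 17.62, 11.68, 11.98 and 14.20 in whole midbrain libraries 1 to 5, with no overlap. It was 2.93-fold higher (log2 fold change 1.49 ± 0.13 SE, limma adjusted p = 2.1e-06). Its astrocytic relative Slc25a18 was 7.79-fold lower, at 2.41 ± 0.971 against 18.8 ± 3.16. The aspartate-glutamate carrier Slc25a12 rose by 0.51 and the aminotransferase Got2 by 0.22 on the log2 scale. Both turned sign as TPM (-0.13 and -0.42) and under quantile normalization (-0.0596 and -0.44), and Got2 also with upper-quartile scaling (-0.0215). The limma adjusted p of Got2 was 0.0231, and its call ended with the replicate number as a block (0.111) and without dopaminergic library 1 (0.0589) or 3 (0.0739) or whole midbrain library 4 (0.0573) or 5 (0.0577). Glud1, which converts glutamate to oxoglutarate, was called lower at -0.30 (limma adjusted p = 0.0365). That call ended with the replicate number as a block (adjusted p = 0.129), under median centring (0.123) and without any 1 library other than whole midbrain 2 (0.0598 to 0.0836), in a range from 1.9e-05 to 0.129.

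Both glycine transporters fell, as did 36.0 percent of all genes tested. Slc6a5 (GlyT2), which marks glycine neurons, was at 0.362 ± 0.160 FPKM against 3.64 ± 1.82, and Slc6a9 (GlyT1), typical of glia, at 5.57 ± 0.995 against 28.1 ± 4.97. The exons of Slc6a9 share 1429 bases with Ccdc24 on the opposite strand.

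A relative of the Gad enzymes went the other way. Gadl1 encodes a decarboxylase that resembles the Gad enzymes but acts on cysteine sulfinate and aspartate rather than on glutamate. It stood at 4.09, 2.16, 4.27 and 2.81 FPKM in dopaminergic libraries 1 to 4 and at 0.323, 0.0247, 0.228, 0.256 and 0.318 in whole midbrain libraries 1 to 5. Every dopaminergic library was above every whole midbrain library, as for 32.6 percent of genes tested. The rise was 14.5-fold in FPKM, from 0.230 ± 0.122 to 3.33 ± 1.02, with a log2 fold change of 1.79 ± 0.17 (SE, limma adjusted p = 4.2e-06). It rested on about 2 to 40 reads per whole midbrain library and 372 to 976 per dopaminergic library, and its exons share 162 bases with Gm9385 on the opposite strand. Of the relatives of the vesicular glutamate transporters, Slc17a5, the sialic acid transporter of lysosomes, was 1.78-fold lower, and Slc17a9, a nucleotide transporter, was at 0.0964 ± 0.0775 FPKM against 0.0999 ± 0.0970 and too low to be tested.

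**Figure D4:**
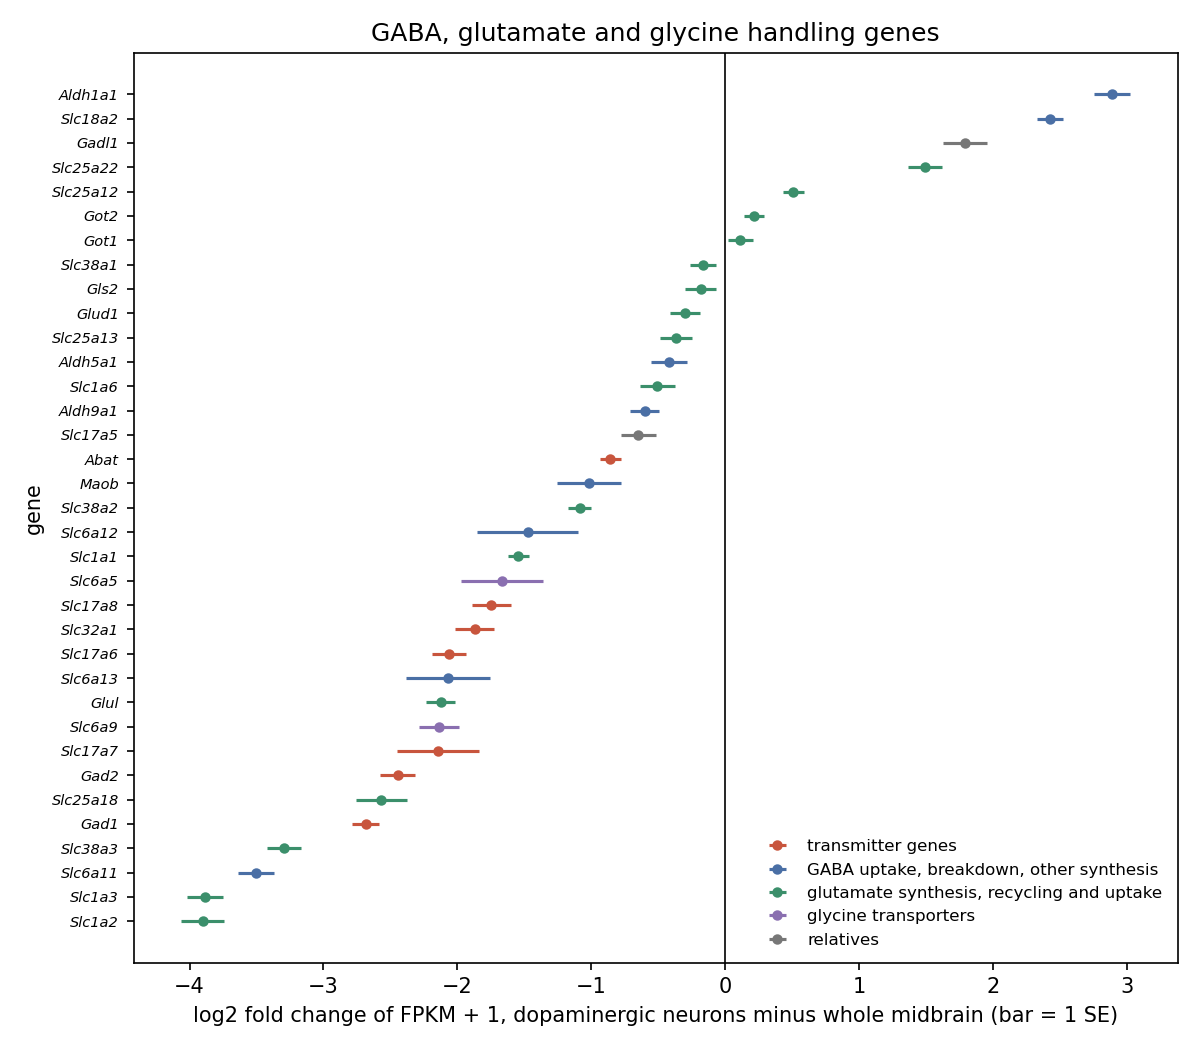
Log2 fold change of FPKM + 1, dopaminergic neurons minus whole midbrain, with bars of 1 SE, for the 7 transmitter genes (red) and tested genes of GABA, glutamate and glycine handling and of relatives. All red points lie left of 0, between -2.68 for Gad1 and -0.86 for Abat, while Aldh1a1, Slc18a2, Gadl1 and Slc25a22 lie furthest right, from 2.89 down to 1.49.

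The genes whose profile over the 9 libraries was most like each member were found by the root mean square difference of log2(FPKM + 1), after subtracting each gene's whole midbrain mean, among 8214 named genes whose whole midbrain mean reached 5 FPKM. The added 1 shrinks the change of low genes, so genes close on this scale can differ in their fold of FPKM. For Gad1 they were P2ry12, Col11a1 and Ank2, with differences of 0.09, 0.10 and 0.10. Ank2 went from 130.2 to 20.3 FPKM, while P2ry12 went from 8.42 to 0.561 and Col11a1 from 6.46 to 0.134, larger folds than that of Gad1. For Slc17a6 they included Kctd12 and the GABA-A receptor subunit Gabrg1, at 0.10 and 0.11. For Gad2 they were Lrp1b, Tia1 and Tnfaip6 (0.10, 0.10 and 0.11), for Slc32a1 Pon2, Clk4 and Sox2 (0.08, 0.10 and 0.10) and for Abat Phf3, Gpd2 and Mon2 (0.05, 0.06 and 0.07). For Slc17a8 they were Bag3, Fbxo32 and Phldb1 (0.07, 0.13 and 0.15). The nearest genes of Slc17a7 were the least alike of the 7 sets, Pcolce, Prg4 and Enpp1 at 0.29, 0.30 and 0.33.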

How the data were processed

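FPKM in the deposited table were computed by the authors with TopHat2 2.0.8 and Cufflinks 2.1.1 on mm10, per the submitters' processing notes. Which annotation and strand setting they used is not given in the sources used here. Of the deposited values, 73.5 percent in whole midbrain and 0.23 percent in dopaminergic libraries have more than 6 significant digits, so a difference in how the groups' values were made cannot be told apart from cell type. The groups were compared with limma 3.58.1 (R 4.3.3) on log2(FPKM + 1), two-sided, with a mean-variance trend and a minimum mean of 1 FPKM, and the script was tested on simulated data. Ratios used a pseudocount of 0.1 and an exact permutation test. Depth was estimated with fragments of 200 bases assumed. Table starts were moved by 1 base to count from 1. Overlaps came from GENCODE M21 (GRCm38). SciPy 1.17.1, pandas 2.3.3 and NumPy 2.4.6 ran under Python 3.11.15, with figures from matplotlib 3.10.9. The text names the members, genes of the pathway lists, Th, Tph2 and other markers, and the 3 profiles most like each member. Markers other than Th and Tph2 were chosen after their values were seen. Members and lists were chosen with earlier results of these data known. Some genes of the lists and profiles are not reported here. Alternatives were other pseudocounts, filters and scalings, no trend, library weights, a replicate block and leaving out each library.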

Additional observations from a re-analysis of the deposited data

Results flagged for a closer look

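Gad2 in whole midbrain library 2 lay far below the rest of its group, at 121.4 FPKM against 172 to 185. Slc32a1 in the same library lay far above its group, at 37.68 FPKM against 23.8 to 26.5. In both the gap to the nearest library made up most of the group's range (0.798 and 0.806 of it), more than Dixon's test allows for 5 samples at the 95 percent level. Chance alone passes this limit in about 1 of 20 groups, and 14 groups were examined. Gad1, at 82.3 FPKM in that library against 64.7 to 70.7, was the highest of its group but did not pass the limit. The summed FPKM of library 2 was itself higher, at 409130 against 309275 to 313252 in the rest of its group. Whether Slc32a1 or Gad1 would stand high there after rescaling to that sum was not tested. Without library 2, Gad2 was left at 16.6 percent in dopaminergic neurons, Slc32a1 at 27.0 percent and Gad1 at 15.02 percent.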

How the results depend on the processing

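The fall of each of the 7 members kept its direction and an adjusted p under 0.05 in every limma alternative in which it was tested, 20 for Gad1, Gad2, Slc32a1, Abat and Slc17a6 and 19 for Slc17a7 and Slc17a8, which did not pass a minimum mean of 5 FPKM. The highest adjusted p was 0.00101, for Slc17a7. Over these alternatives the log2 fold change of Gad1 ran from -3.38 to -2.32 and that of Abat from -1.51 to -0.79. Slc17a8 (-3.30 to -0.65) and Slc17a7 (-3.29 to -0.99) moved most, with the pseudocount. The median of all genes tested moved from 0.04 to -0.55 as TPM and to -0.16 with upper-quartile scaling. Counts over all genes changed by over 1.5 times as TPM (2248 higher, 7393 lower) and with the minimum mean of 5 FPKM (2493 lower). As TPM the level left was 34.9 percent for Abat, 9.22 for Gad1, 11.1 for Gad2, 14.6 for Slc17a6, 15.9 for Slc32a1, 6.01 for Slc17a7 and 5.28 for Slc17a8.

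The 8 pairs whose ratio differed had groups that did not overlap, so leaving out 1 library could not change their direction or make them overlap. Without any 1 library 0 of 21 pairs had an adjusted p under 0.05 by the exact permutation test, with 8 to 12 at an unadjusted p under 0.05. The reason is that the smallest exact p then rises to 0.0286 or 0.0357. With a ratio pseudocount of 1 or of 0.01, 9 pairs passed, the same 8 with their direction among them. With 1, the difference for Gad1 to Slc17a8 became -0.94 (exact permutation test, adjusted p = 0.0370) in place of 0.51, since that pseudocount exceeds the Slc17a8 level of dopaminergic neurons. With 1, signs also turned for Gad1 to Slc17a7 (-0.54), Gad2 to Slc17a7 (-0.30), Gad2 to Slc17a8 (-0.70), Slc17a6 to Slc17a8 (-0.32), Slc32a1 to Slc17a8 (-0.13) and Slc17a7 to Slc17a8 (-0.40), none of which passed there or at 0.1.

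Among pathway genes signs turned for Got1 (-0.53 as TPM, -0.70 under quantile normalization, -0.12 with upper-quartile scaling), for Got2 (-0.42, -0.44 and -0.0215), for Slc25a12 (-0.13 as TPM and -0.0596 under quantile normalization) and for Slc25a13 (0.24 under quantile normalization). The cause was not tested.

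Libraries of both groups are numbered, but nothing says that a number marks a shared animal or batch, and deviations of same-numbered libraries correlated at -0.050 to 0.019. No library correlated best with its own number. With the replicate block 4554 genes were higher and 4355 lower, 0 members higher and 7 lower, and 5 pathway genes higher and 18 lower in place of 6 and 19. Low values limit Slc17a7 and Slc17a8 most.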
